A study of Mus musculus with 9 samples.

Results

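The tumour necrosis factor (TNF) and NF-kB feedback genes are 10 genes chosen by name and role, not by a measured value: the ligand Tnf, its receptors Tnfrsf1a and Tnfrsf1b, the induced inhibitors Tnfaip3, Nfkbia and Nfkbie, the NF-kB subunits Nfkb1, Nfkb2 and Relb, and the induced ubiquitin ligase Birc3. They were found by symbol, and all 10 of 10 were among the 52550 genes counted and among the 22430 genes with enough reads to be tested. Messenger RNA was sequenced from the ear dermis of wild-type C57BL/6 mice aged 8 weeks, in 9 libraries from 3 groups of 3. The VAS+H2O group received vaseline on the ear for 5 days and water by gavage for 10 days, and served as the control. The IMQ+H2O group received imiquimod cream, an agonist of Toll-like receptor 7 that gives mouse skin a psoriasis-like inflammation, together with water. The IMQ+XYF group received the same cream and, by gavage, XYF (Xiao-Yin-Fang), a medicinal herb decoction used in traditional Chinese practice, at 23.3 mg per g. In all groups the gavage lasted 10 days and the topical treatment 5. By the methods, the topical treatment fell on the last 5 days, so the decoction was started before the cream. In the main test, 0 of the 10 genes passed in any comparison of these groups. Few of all 22430 tested genes did. The share was 0.994% in IMQ+H2O against VAS+H2O, 0.00892% in IMQ+XYF against IMQ+H2O and 1.2% in IMQ+XYF against VAS+H2O. A count of 0 of 10 is near these shares.

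TNF is a cytokine that macrophages, mast cells, T cells and keratinocytes make in inflamed skin, and drugs that block it are used against psoriasis. When TNF binds its receptor, a kinase complex marks the inhibitor IkB for destruction and the NF-kB dimers it held enter the nucleus. Among the genes these dimers switch on are their own inhibitors, the ubiquitin-editing enzyme A20 and several NF-kB subunits, so the levels of these transcripts are often read as a trace of pathway activity.

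The libraries held between 28756305 and 79836881 counts. Values below are CPM, the reads of a gene relative to all counted reads of its library, scaled by the trimmed mean of M values (TMM), which makes libraries of different depth comparable for 1 gene. The labels do not say that the replicates came from separate animals, so the p-values measure only the spread between these libraries, which may be technical. All 6 fibroblast markers were tested, and their summed level ran from 10367 to 25353 CPM. Epidermal keratinocyte markers were also present in every library, between 2061 and 6118 CPM in 8 of them and at 13989 CPM in IMQ+XYF replicate 1, which stood apart. Summed neutrophil markers lay between 6.65 and 21.1 CPM in the control libraries and between 166 and 630 CPM in the 6 imiquimod-treated libraries. Of the 6 neutrophil markers, 5 were tested, and Ly6g had too few reads. S100a8 and S100a9 weighed most in the treated sums, with 227.5 and 301.1 of the 630 CPM in IMQ+H2O replicate 3.

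The genes differed widely in level. Compared per kilobase of merged exon length, the mean over the 9 libraries was 334 ± 78.5 CPM per kb (SD, n = 9) for Nfkbia, which encodes IkB alpha, the main inhibitor of NF-kB. It was 83.4 ± 17.3 CPM per kb for Tnfrsf1a, the receptor TNFR1 found on most cells, and 32.3 ± 8.98 CPM per kb for Tnfaip3, which encodes A20. The library ranges of these 3 genes overlapped neither each other nor the next gene's. The other 7 genes followed between 12.6 CPM per kb for Nfkb2 and 6.01 CPM per kb for Nfkbie, which encodes IkB epsilon. The range of each overlapped that of its neighbour in the order. All genes were measured in the same libraries, and unpaired ranges ignore this, so they cannot decide the order of these 7. Tnf itself came ninth, with a mean of 7.61 CPM per kb and the widest range in proportion, from 2.67 to 14.4 CPM per kb. With the longest annotated transcript as the length, 8 of the 10 genes kept their rank, while Nfkb1 moved up to 28.6 CPM per kb, above Birc3 and Nfkb2, and its range then overlapped that of Tnfaip3.

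**Figure D1:**
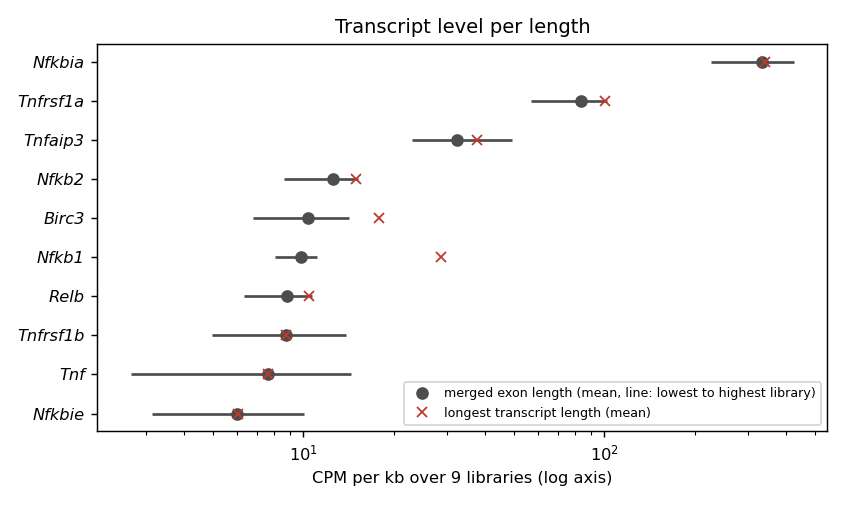
Level of each gene in CPM per kb on a log axis; points are means over the 9 libraries with merged exon length, lines run from the lowest to the highest library, and crosses use the longest transcript. Nfkbia at 334 and Tnfrsf1a at 83.4 CPM per kb lay above the other genes, and Nfkb1 depended most on the length used.

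The genes lie on 9 chromosomes of GRCm38, in the GENCODE vM21 annotation, and all are protein coding. Tnf (chr17:35199381-35202007, minus strand) and Nfkbie (chr17:45555703-45563169, plus strand) share a chromosome, the former within the major histocompatibility region. Nfkb2 (chr19:46304320-46312385, plus strand) is overlapped by Psd and the non-coding AC114539.1 on the opposite strand. The strand setting of the counting was not stated, so reads of these neighbours could not be told apart from those of Nfkb2. Nfkb1 (chr3:135584655-135691547, minus strand) is overlapped by the transcript model Gm43430 on its own strand, and the other 8 genes had no overlapping neighbour.

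To look for letters of possible NF-kB sites near the genes' starts, promoter windows were searched for the kappa B letters on both strands. Each window ran from 250 bases before to 50 bases after a RefSeq start on GRCm38.p6. The table of windows held 8 of the 10 genes. Nfkb1 and Relb were not matched. The 8 genes had 11 windows, since some have more than 1 start. The kappa B consensus was found in 6 of these 11, belonging to Tnfaip3, Nfkbia, Nfkbie and Nfkb2, and in 8.46% of all 32851 windows of 300 bases. Some of the 6 were windows of the same gene, Nfkb2. Tnf, Tnfrsf1a, Tnfrsf1b and Birc3 had no consensus match in their windows. The stricter letters GGGANTTTCC, each match of which is also a match of the consensus, occurred in 3 of the 11, of Nfkbia and Nfkb2, and in 0.411% of all windows. The 150 bases just before the start of these 4 feedback genes are shown because they carry consensus matches (the stricter letters in Nfkb2 lie near other starts, in a pair of windows that overlap and share the match, and are not in the stretch), with every consensus match on either strand in capitals, 5′ to 3′ along the gene: Tnfaip3 chr10:19015411-19015560 (minus strand), Nfkbia chr12:55492648-55492797 (minus strand), Nfkbie chr17:45555550-45555699 (plus strand), Nfkb2 chr19:46304587-46304736 (plus strand).
Tnfaip3: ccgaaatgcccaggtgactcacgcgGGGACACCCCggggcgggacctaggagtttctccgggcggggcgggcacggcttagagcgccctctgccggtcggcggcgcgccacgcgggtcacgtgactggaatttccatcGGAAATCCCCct
Nfkbia: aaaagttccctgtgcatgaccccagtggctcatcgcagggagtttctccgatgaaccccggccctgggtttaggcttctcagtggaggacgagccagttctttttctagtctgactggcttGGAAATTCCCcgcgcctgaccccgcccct
Nfkbie: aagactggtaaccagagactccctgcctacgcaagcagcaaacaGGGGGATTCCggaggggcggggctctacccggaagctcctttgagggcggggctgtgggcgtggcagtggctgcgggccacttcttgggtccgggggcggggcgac
Nfkb2: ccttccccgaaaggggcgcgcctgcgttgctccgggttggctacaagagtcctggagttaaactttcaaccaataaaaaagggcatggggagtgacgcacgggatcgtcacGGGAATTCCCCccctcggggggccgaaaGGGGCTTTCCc
The Tnfaip3 stretch held 2 separate capital runs, the nearer one followed by 2 bases before the start. The Nfkbia stretch held 1 match, on the strand opposite to the gene, and the Nfkbie stretch held 1 on the gene's strand. In Nfkb2, overlapping matches formed the first run and a further match lay just before the start. The Tnfaip3 and Nfkb2 stretches precede RefSeq starts that lie inside the GENCODE genes (Tnfaip3 at chr10:19000910-19015657, Nfkb2 as given above). A match is a run of letters only, and the libraries did not measure binding.

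Imiquimod was compared with vaseline to ask what the cream did to the dermis. Of the 10 genes, 0 passed the edgeR quasi-likelihood test at an adjusted p of 0.05 and a 2-fold change, where 0.994% of all tested genes did (223 of 22430). By DESeq2, 0 of 10 passed the same rule, against 3.88% of its tested genes. At an unadjusted p under 0.05, 2 of 10 genes were found, both TNF receptors, against 20.9% of all genes. The values of the groups did not overlap for 2 of 10 genes, Tnfrsf1a and Relb, against 31.5% of all genes, so both shares were near or below the background. The median log2 fold change was 0.10 over the 10 genes and -0.02 over all tested genes, and the 10 values ran from -0.34 to 0.70. For 7 of 10 genes the 95% interval of the change lay within 2-fold in either direction, and for 1 gene, Nfkb1, within 1.5-fold.

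**Figure D2:**
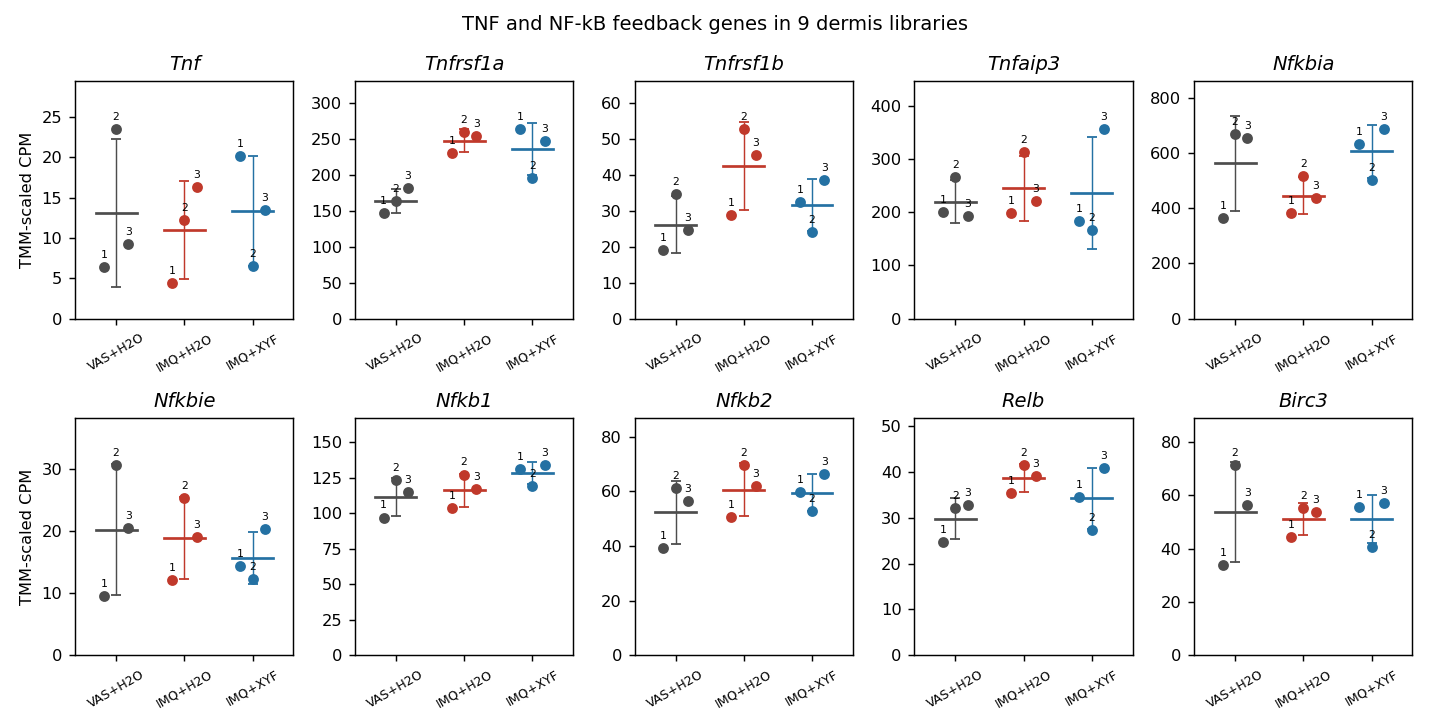
TMM-scaled CPM of each gene (axes start at 0) in the 9 libraries; points are libraries with their replicate number, thick lines group means and thin bars SD (n = 3). Tnfrsf1a separated the 3 control libraries (147 to 182 CPM) from the 6 imiquimod-treated ones (196 to 265 CPM), while for Tnf the groups covered each other.

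The ligand came first. Tnf stood at 6.43, 23.6 and 9.22 CPM in VAS+H2O replicates 1 to 3, at 4.37, 12.3 and 16.3 CPM in IMQ+H2O and at 20.2, 6.51 and 13.4 CPM in IMQ+XYF. The highest library was a control and the lowest an imiquimod-treated one, and every pair of groups overlapped. The means were 13.1 ± 9.20, 11 ± 6.05 and 13.4 ± 6.84 CPM (SD, n = 3 each). The log2 fold change by imiquimod was -0.25 (SE 0.62, 95% interval -1.65 to 1.16, or 0.319-fold to 2.23-fold). In edgeR its unadjusted p was 0.701 and its adjusted p 0.848. Without VAS+H2O replicate 2, the library with the highest Tnf, the value was 0.49. Counts of Tnf ran from 127 to 1623 per library, and its within-group SD of 0.93 on the log2 scale was the largest of the 10 genes, where the median of all genes with a mean of at least 1 CPM was 0.23.

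The receptors carried the 2 largest values. Tnfrsf1a, whose product starts both NF-kB signalling and cell death, stood at 147, 164 and 182 CPM in VAS+H2O, at 231, 260 and 254 CPM in IMQ+H2O and at 265, 196 and 248 CPM in IMQ+XYF. All imiquimod-treated libraries lay above all control libraries. The mean was 164 ± 17.1 CPM in VAS+H2O and 248 ± 15.5 CPM in IMQ+H2O (SD, n = 3 each), a 1.51-fold difference (log2 0.59, SE 0.13, 95% interval 1.22-fold to 1.87-fold). In edgeR the unadjusted p was 0.0018 and the adjusted p 0.069, over the threshold. The adjusted p ran from 0.0045 to 0.218 over the alternatives: DESeq2 gave 0.0045, and it was 0.0432 with a stricter low-count filter, 0.0274 with the 2 groups alone and 0.0210 without IMQ+XYF replicate 2. The interval stayed under 2-fold. With no fold limit, 0 of 10 genes passed edgeR's adjusted p by imiquimod, against 1.37% of all genes.

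Tnfrsf1b encodes TNFR2, a receptor without a death domain that is found mainly on leukocytes and endothelium. It stood at 19.0, 34.7 and 24.8 CPM in VAS+H2O, at 28.9, 52.9 and 45.5 CPM in IMQ+H2O and at 32.6, 24.0 and 38.5 CPM in IMQ+XYF. VAS+H2O replicate 2 lay above IMQ+H2O replicate 1, so the first groups overlapped. The log2 fold change by imiquimod was 0.70 (SE 0.29, 95% interval 0.05 to 1.35), with an unadjusted edgeR p of 0.038 and an adjusted p of 0.213. Of the cells that can carry this receptor, the summed monocyte and macrophage markers overlapped between VAS+H2O (252 to 489 CPM) and IMQ+H2O (293 to 500 CPM). The summed T cell markers overlapped too (14.0 to 27.9 CPM and 11.4 to 34.5 CPM), while the neutrophil sums given above did not. Both overlapping sums join markers that moved in opposite directions. By imiquimod, log2 fold changes ran from -0.34 to 1.46 over 7 monocyte and macrophage markers, 5 of them positive. Over 6 T cell markers they ran from -1.51 to 1.79, 2 of them positive. The summed endothelial markers were at 473 to 796 CPM in VAS+H2O and at 1065 to 1142 CPM in IMQ+H2O (6 of 6 markers tested, with a positive change for all 6 and 0 called), and the part of these cells in the result was not tested. In bulk tissue, fewer cells of a type and less RNA per cell cannot be told apart.

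The induced inhibitors showed no common direction. Nfkbia stood at 365, 668 and 655 CPM in VAS+H2O, at 382, 517 and 438 CPM in IMQ+H2O and at 630, 500 and 688 CPM in IMQ+XYF. The control range covered the whole IMQ+H2O range, and the log2 fold change by imiquimod was -0.34 (SE 0.24, 95% interval -0.88 to 0.21). Tnfaip3, whose protein A20 removes the ubiquitin chains that keep the receptor complex active, stood at 201, 266 and 193 CPM in VAS+H2O, at 199, 313 and 222 CPM in IMQ+H2O and at 184, 166 and 357 CPM in IMQ+XYF. Its highest and lowest library were both in IMQ+XYF, and the imiquimod value was 0.15 (SE 0.30, 95% interval -0.53 to 0.84). Nfkbie ranged from 9.56 to 30.7 CPM in VAS+H2O, from 12.2 to 25.4 CPM in IMQ+H2O and from 12.4 to 20.4 CPM in IMQ+XYF, each group within the range of the controls. Its log2 fold change by imiquimod was -0.10 (SE 0.41, 95% interval -1.04 to 0.84).

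The 3 subunits had within-group SDs of 0.14 to 0.26 on the log2 scale, smaller than those of the inhibitors and of Birc3. Nfkb1, the source of p105 and p50, ranged from 97.1 to 123 CPM in VAS+H2O, from 104 to 127 CPM in IMQ+H2O and from 119 to 134 CPM in IMQ+XYF. Its log2 fold change by imiquimod was 0.06 (SE 0.12, 95% interval -0.21 to 0.33), the narrowest interval of the 10 genes. Nfkb2, the source of p100 and p52 in the non-canonical branch, ranged from 39.4 to 61.3 CPM, from 50.5 to 69.6 CPM and from 52.7 to 66.4 CPM in the same order of groups, with a value of 0.21 (SE 0.18, 95% interval -0.21 to 0.63). Relb, the partner of p52, stood at 24.6, 32.0 and 32.7 CPM in VAS+H2O, at 35.3, 41.4 and 39.1 CPM in IMQ+H2O and at 34.4, 27.3 and 40.7 CPM in IMQ+XYF. The IMQ+H2O libraries were all above the controls, and the log2 fold change was 0.37 (SE 0.17, 95% interval -0.01 to 0.75). In edgeR its unadjusted p was 0.0525 and its adjusted p 0.243. Birc3, which encodes the ubiquitin ligase cIAP2 of the receptor complex, ranged from 34.0 to 71.2 CPM in VAS+H2O, from 44.2 to 55.2 CPM in IMQ+H2O and from 40.5 to 56.9 CPM in IMQ+XYF. Both treated groups lay within the control range, and the imiquimod value was -0.08 (SE 0.25, 95% interval -0.65 to 0.49).

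**Figure D3:**
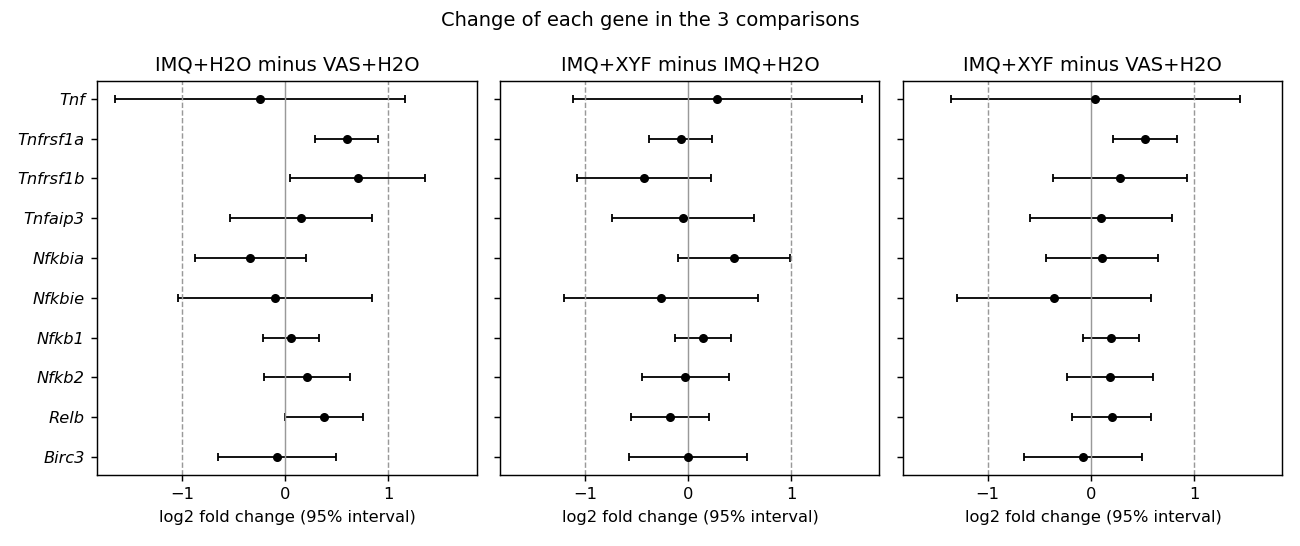
Log2 fold change (points) with its 95% interval (bars) for each gene in the 3 comparisons, with dashed lines at a 2-fold change. The imiquimod interval of Tnfrsf1a (1.22-fold to 1.87-fold) excluded 0 and stayed inside the dashed lines, and the intervals of Tnf crossed both 0 and a dashed line in each panel.

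IMQ+XYF was compared with IMQ+H2O to ask what the decoction changed in imiquimod-treated dermis. Again 0 of 10 genes passed in edgeR, where 0.00892% of all genes passed with the fold rule and also 0.00892% without it (2 of 22430). DESeq2 called 0 of 10 against 1.14% of its genes, 0 of 10 had an unadjusted edgeR p under 0.05 against 11.7%, and 0 of 10 had groups that did not overlap against 18%. The median log2 fold change was -0.04 over the 10 genes and 0.01 over all tested genes. For 7 genes the 95% interval lay within 2-fold, and for 5 genes within 1.5-fold. Nfkbia had the highest value at 0.44 (SE 0.24, 95% interval -0.10 to 0.99). In edgeR its unadjusted p was 0.0966 and its adjusted p 0.488. The groups overlapped, since IMQ+XYF replicate 2 at 500 CPM lay below IMQ+H2O replicate 2 at 517 CPM. Tnfrsf1b had the lowest at -0.42 (SE 0.29, 95% interval -1.07 to 0.23), and the Tnf value was 0.28 (SE 0.62, 95% interval -1.12 to 1.69). Tnfrsf1a, at -0.07 (SE 0.13, 95% interval -0.38 to 0.23), was close to its IMQ+H2O level. The other 6 genes had values from -0.26 for Nfkbie to 0.14 for Nfkb1. Without IMQ+XYF replicate 1, the library with the high keratinocyte markers, the 10 values ran from -0.44 to 0.42. Of the 10 genes 0 were called, in a fit that called 1 of 22976 genes.

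Comparing IMQ+XYF with VAS+H2O asked what remained different from control dermis under both treatments. In this comparison 0 of 10 genes passed in edgeR, against 1.2% of all genes (270 of 22430), and 0 of 10 in DESeq2, against 3.46%. At an unadjusted edgeR p under 0.05, 1 of 10 was found, Tnfrsf1a, against 18.3% of all genes, and the groups of 1 gene, again Tnfrsf1a, did not overlap, against 22.1%. Its mean in IMQ+XYF was 236 ± 36.1 CPM (SD, n = 3), with a log2 fold change of 0.52 (SE 0.13, 95% interval 0.22 to 0.83), an unadjusted edgeR p of 0.00389 and an adjusted p of 0.0848. DESeq2 gave it an adjusted p of 0.0108, and edgeR without IMQ+XYF replicate 2 gave 0.0144. With no fold limit, edgeR called 0 of 10 genes against 2.02% of all genes. The median was 0.15 over the 10 genes and -0.02 over all genes, and 8 of 10 intervals lay within 2-fold. The controls are shared with the first comparison, so the values for Tnfrsf1a are not independent of each other.

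Within each group the 10 genes tended to be high or low in the same libraries. VAS+H2O replicate 1 had the lowest value of its group for 9 of 10 genes, IMQ+H2O replicate 1 for 10 of 10 and IMQ+XYF replicate 2 for 10 of 10. The 29 genes of the NF-kB target list were likewise most often lowest in the same libraries, with 24, 24 and 23 genes. These libraries were lowest for 38.5%, 37.3% and 38.9% of all tested genes in their groups. VAS+H2O replicate 2 was highest for 8 genes, IMQ+H2O replicate 2 for 9 and IMQ+XYF replicate 3 for 8, where 33.2%, 33.5% and 27.6% of all genes were highest. The mean of the 10 genes' centred log2 CPM was -0.54 in VAS+H2O replicate 1, -0.30 in IMQ+H2O replicate 1 and -0.30 in IMQ+XYF replicate 2, and between -0.04 and 0.30 in the other 6 libraries. Genes of 1 library share its tissue and its processing, so the 10 genes are not separate observations of this order.

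**Figure D4:**
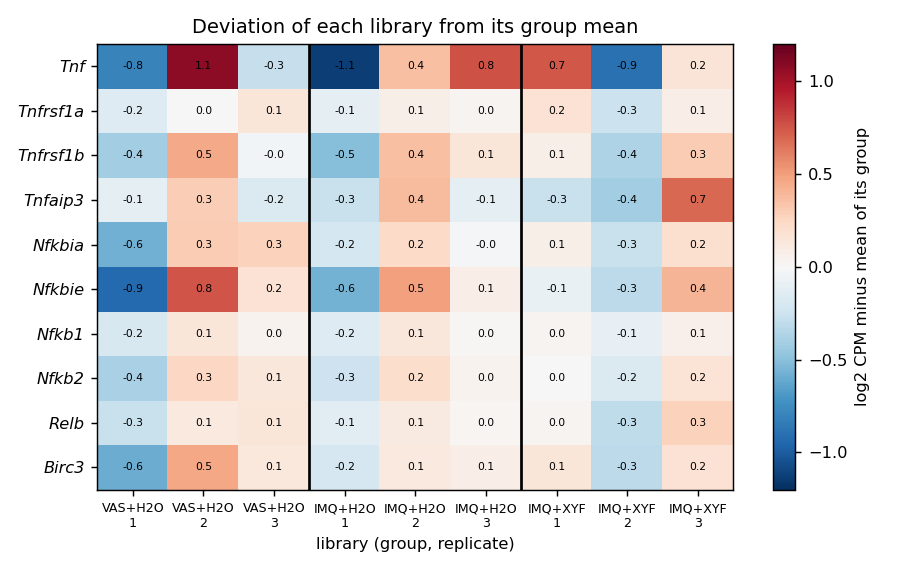
Log2 CPM of each gene in each library minus the mean of its group; colour and number give the deviation and black lines divide the groups. VAS+H2O replicate 1, IMQ+H2O replicate 1 and IMQ+XYF replicate 2 are blue for 10 of 10 genes, with the strongest deviations in them for Tnf and, in VAS+H2O replicate 1, for Nfkbie.

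Of the 10 lists of cell type markers, 5 had their lowest sum of each group in the same 3 libraries, 1 had its highest sum there and 4 did neither. Summed cartilage markers, the list that was highest, were at 1668, 985 and 1146 CPM in VAS+H2O, at 452, 307 and 394 CPM in IMQ+H2O and at 548, 1675 and 923 CPM in IMQ+XYF. Of the 6 cartilage markers, 5 were tested and Matn1 was at 0 in every library. Summed fibroblast markers were lowest in VAS+H2O replicate 1, IMQ+H2O replicate 1 and IMQ+XYF replicate 2, at 14594, 10367 and 10533 CPM. In IMQ+XYF the fibroblast markers were split. Col1a1, Col1a2, Col3a1 and Pdgfra were lowest in replicate 2. Dcn (4821, 5359 and 5288 CPM) and Lum (370, 537 and 493 CPM) were highest in it. The mast cell sums in the 3 libraries were 238, 252 and 196 CPM, and the monocyte and macrophage sums were 252, 293 and 235 CPM. The neutrophil and dendritic cell sums were lowest in those libraries too. The other 4 sums followed this order in part or not at all. The keratinocyte and endothelial sums were lowest in 2 of the 3 libraries, the T cell sum in 1 and the skeletal muscle sum in 0. The lowest T cell sums of the groups were 14.0 CPM in VAS+H2O replicate 3, 11.4 CPM in IMQ+H2O replicate 1 and 17.97 CPM in IMQ+XYF replicate 3. The T cell order leaned on 1 gene. Cd28 alone made 17.9 of 27.9 CPM in VAS+H2O replicate 1 and 12.5 of 20.8 CPM in IMQ+XYF replicate 2. The part of these markers in the order of the libraries was not tested.

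The genes whose log2 CPM followed the mean of the 10 most closely over the 9 libraries, among 14519 genes, were Edem1 (Pearson r = 0.974), B4galt1 (0.972), Tnfaip6 (0.971), Cytip (0.963) and Ankef1 (0.96). Tnfaip6 is itself a TNF-induced gene, encoding a hyaluronan-binding protein. Those most like Tnf alone were C1galt1 (0.966) and Atf6 (0.949). The 9 points share the libraries' composition and depth. The r values are the highest of many and describe these libraries only.

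Other genes of the pathway were taken from 6 lists, with 86 distinct genes of which 85 were tested. By imiquimod, edgeR called 3 higher and 0 lower, where 0.646% of all genes were called higher, and 24 had an unadjusted p under 0.05, a limit that 20.9% of all genes met. All 3 stood in the list of well-known NF-kB target genes, of which 29 of 29 were tested. Lcn2, the iron-scavenging neutrophil and keratinocyte protein lipocalin 2, rose from 20.5, 32.2 and 22.4 CPM in VAS+H2O to 188, 215 and 296 CPM in IMQ+H2O (log2 fold change 3.22, SE 0.23, edgeR adjusted p = 0.00255). Sod2, the mitochondrial superoxide dismutase, rose from 54.8, 77.1 and 59.5 CPM to 125, 156 and 208 CPM (1.35, SE 0.25, adjusted p = 0.0429). Ccl5, a chemokine for T cells and monocytes, rose from 1.5, 1.03 and 0.442 CPM to 4.06, 7.96 and 10.3 CPM (2.93, SE 0.54, adjusted p = 0.043). The groups of these 3 genes did not overlap. Lcn2 kept its call under all 15 alternatives, with adjusted p-values up to 0.0244. Sod2 lost it under 7 of 15 and Ccl5 under 8 of 15, in both cases with the replicate block and without any 1 of the 6 VAS+H2O and IMQ+H2O libraries, and Ccl5 also without IMQ+XYF replicate 3, with edgeR adjusted p-values up to 0.144 and 0.147. Over the 29 targets, 17 values were positive and the median was 0.40, with a range from -1.74 to 3.22. An unadjusted edgeR p under 0.05 was met by 14 of the 29, against 20.9% of all genes. The list was chosen with earlier results of these data known, so this count is a description only. Nfkbiz, Bcl3, Tnip1, Traf1, Zc3h12a and Cflar stand both in this list and in another.

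In the other 5 lists, 0 genes were called by imiquimod. Of 12 tested TNF-family ligands, receptors and shedding factors, 4 had an unadjusted edgeR p under 0.05, to be read, like the list counts that follow, against 20.9% of all genes. Tnfsf11, the ligand RANKL, had a log2 fold change of 2.76 (SE 0.60, adjusted p = 0.0633, by DESeq2 0.000158), at 0.417 CPM in VAS+H2O and 2.78 CPM in IMQ+H2O on average, and Ltbr, the lymphotoxin beta receptor, one of 0.41 (SE 0.10, adjusted p = 0.0854). Of 20 adaptors and kinases, 2 were under that limit: Traf1, a receptor adaptor, at 1.15 (SE 0.30, adjusted p = 0.0939), and its relative Traf5 at -0.37 (SE 0.13). Of 15 further brakes there were 2, Zfp36, which speeds the decay of Tnf messenger RNA, at -0.71 (SE 0.21, adjusted p = 0.116), and the A20 partner Rnf11 at -0.30 (SE 0.08). Of 8 genes of the death arm there were 3, with Casp8 at 0.43 (SE 0.13) and Ripk3, a kinase of necroptosis, at 0.97 (SE 0.31). Of 7 other subunits and inhibitors there were 2, the IkB-like Bcl3 at 0.79 (SE 0.33) and Nfkbiz at -0.50 (SE 0.21).

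By XYF, edgeR called 0 of the 85 genes, and 8 had an unadjusted p under 0.05, where 11.7% of all genes did. Ccl20, the ligand of the chemokine receptor CCR6, stood at 13.2, 11.5 and 12.5 CPM in IMQ+H2O and at 141, 25.7 and 29.97 CPM in IMQ+XYF, with a log2 fold change of 2.41 (SE 0.66, edgeR adjusted p = 0.364, by DESeq2 0.0114). All IMQ+XYF libraries were above all IMQ+H2O libraries, and the highest was replicate 1, the one with 13989 CPM of keratinocyte markers. Their part in that value was not tested. Traf1 was at -0.77 (SE 0.30) and Nfkbiz at 0.50 (SE 0.21), neither past the adjusted threshold. In IMQ+XYF against VAS+H2O, edgeR called 3 higher, where 0.695% of all genes were called higher, and 0 lower. Ccl20 was at 2.01, 3.72 and 1.21 CPM in the controls, with a log2 fold change of 4.85 (SE 0.75, adjusted p = 0.0273), and Lcn2 and Sod2 had values of 2.58 (SE 0.22) and 1.27 (SE 0.25). Lcn2 kept this call under all 15 alternatives. Ccl20 lost it under 7, with adjusted p-values up to 0.109 in edgeR: the replicate block, the 2 groups alone, and the fits that left out any 1 control library, the second IMQ+H2O replicate or the third IMQ+XYF replicate. Sod2 lost it under 10, with adjusted p-values up to 0.152 in edgeR: the replicate block, the 2 groups alone, and the fits without any 1 library other than IMQ+XYF replicate 2.

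**Figure D5:**
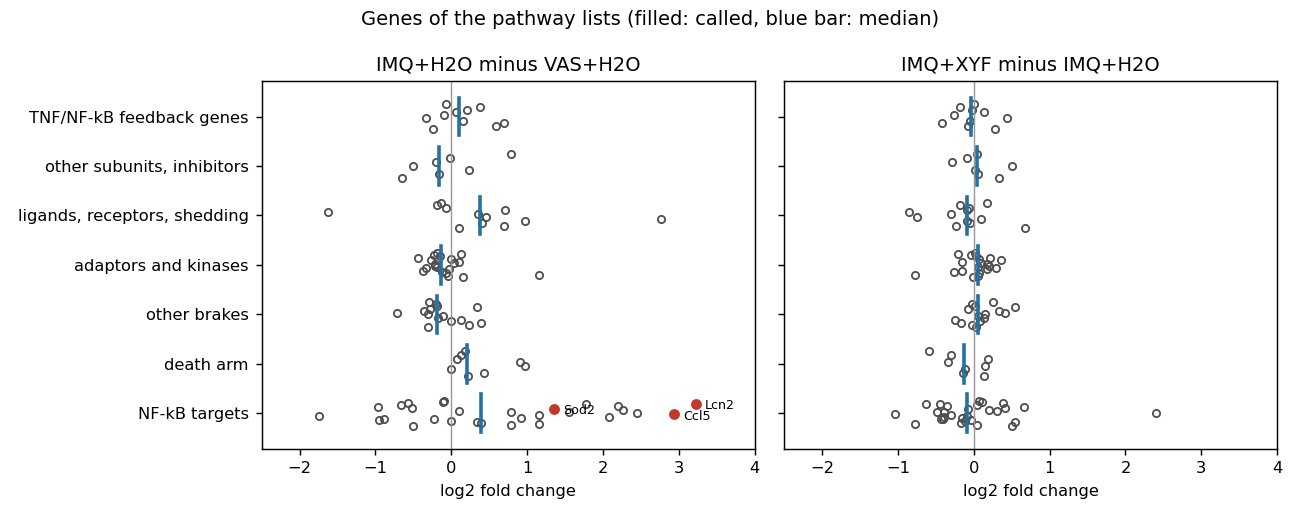
Log2 fold changes of the feedback genes and of the 6 pathway lists by imiquimod (left) and by XYF (right); circles are genes, filled circles passed the edgeR test with the fold rule, and blue bars are list medians. The feedback genes lay between -0.34 and 0.70 by imiquimod, and the 3 filled circles, Lcn2, Ccl5 and Sod2, were all NF-kB targets.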

How the data were processed

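The authors deposited 1 table of read counts per Ensembl gene, whole numbers with no normalization. The submitters' processing notes name STAR 2.5, the build GRCm38, Cuffnorm and DESeq 1.22.1, and the methods name StringTie and DESeq2. The counting tool, its strand setting and its treatment of multiply mapped reads are not given in the sources used here, nor is it clear whether each library pooled mice. Groups came from the labels. Genes kept by filterByExpr were tested with edgeR 4.0.16 (R 4.3.3): TMM scaling, 1 quasi-likelihood fit over 9 libraries, Benjamini-Hochberg adjustment over 22430 genes. A gene was called at an adjusted p of 0.05 or lower and an absolute log2 fold change of 1 or higher. DESeq2 1.42.0, other scalings and filters, a replicate block and leaving out each library were alternatives, and the code was tested on simulated data. The intervals of fold changes come from the same fit. Per-length levels divide CPM by GENCODE vM21 exon length. Promoter sequences are from RefSeq on GRCm38.p6. All 10 genes were named, and from each pathway list the called genes and the 2 with the smallest imiquimod p. The genes and lists were chosen with earlier results of these data known. From the genes most like the feedback genes in pattern, 1 is not reported here.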

Additional observations from a re-analysis of the deposited data

How the results depend on the processing

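No feedback gene was called in any of the 3 comparisons under any of the 15 alternatives run. These alternatives called few of all genes, so a count of 0 is near the background. By imiquimod, calls ran from 25 of 22873 genes (without IMQ+H2O replicate 3) to 945 of 24358 (DESeq2). By XYF, the edgeR alternatives called between 0 and 4 genes, and DESeq2 called 223 of 19604. In IMQ+XYF against VAS+H2O, calls ran from 12 of 23385 (without VAS+H2O replicate 2) to 701 of 20283 (DESeq2). Of 450 recomputed log2 fold changes, 36 changed sign, in 16 of 30 results, all at values of 0.487 or smaller in size. With no fold limit (a count added after the fits were seen), 1 gene, Tnfrsf1a, passed the adjusted threshold by imiquimod with DESeq2, the stricter low-count filter, the 2 groups alone and without IMQ+XYF replicate 2, and 1 passed in IMQ+XYF against VAS+H2O with DESeq2 and without that library, so these counts ran from 0 to 1 over the left-out libraries. The cause was not tested. By XYF, Birc3 went from -0.000561 to 0.00995 with DESeq2, 0.0253 with no low-count filter and 0.0239 with the replicate block. Leaving out 1 library at a time, values that changed sign ran as follows. By imiquimod they ran from -0.623 to 0.487 for Tnf, from -0.0663 to 0.311 for Tnfaip3, from -0.439 to 0.322 for Nfkbie, from -0.0395 to 0.129 for Nfkb1 and from -0.322 to 0.173 for Birc3. By XYF they ran from -0.139 to 0.708 for Tnf, from -0.16 to 0.0744 for Tnfrsf1a, from -0.48 to 0.171 for Tnfaip3, from -0.496 to 0.00966 for Nfkbie, from -0.14 to 0.0879 for Nfkb2 and from -0.0925 to 0.167 for Birc3. In IMQ+XYF against VAS+H2O they ran from -0.384 to 0.775 for Tnf, from -0.328 to 0.346 for Tnfaip3, from -0.125 to 0.28 for Nfkbia, from -0.698 to 0.0629 for Nfkbie and from -0.319 to 0.177 for Birc3.

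Same-numbered libraries did not deviate together (r from -0.183 to 0.125 over 9 pairs, 1 over 0.1), so the numbers were not taken as a pairing. With the replicate block, 0 feedback genes were called, and over all genes 86 by imiquimod, 0 by XYF and 54 in IMQ+XYF against VAS+H2O, where the fit without the block called 223, 2 and 270. The lowest count of Tnf in a library was 127, and the 95% interval of Tnf by imiquimod still spanned 0.319-fold to 2.23-fold with 3 libraries a group.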
